A study of Mus musculus with 9 samples.

Results

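The BCL2 family decides whether the outer membrane of mitochondria stays closed or is opened to start cell death, and 9 of its genes were followed in transferred CD8+ T cells under 3 antibody treatments. The genes were chosen by name as well-known members of the family. They are the protective genes Bcl2, Bcl2l1 and Mcl1, and the death-promoting genes Bcl2l11, Bbc3, Pmaip1, Bid, Bad and Bak1. Bax, the tenth gene named, was not analysed here. The 9 genes each had 1 probe set of their own, among 30702 genes that were measured and tested.

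Each of 9 mice, naive and congenic to the donors, was given 2000000 CD8+ T cells marked by Thy1.1. The donors were pmel1 mice, whose T cells bear a transgenic receptor specific for gp100, a melanocyte protein. All mice received 100 µg of the human gp100 peptide and 400 µg of antibody. In the combination group the antibodies were 200 µg of AT124, an agonist of the costimulatory receptor CD27, with 100 µg of RMP1-14 against PD-1 and 100 µg of 10F.9G2 against PD-L1. In the anti-CD27 group they were 200 µg of AT124 with 200 µg of isotype control, and in the anti-PD-1/L1 group 100 µg of RMP1-14 and 100 µg of 10F.9G2 with 200 µg of isotype control. Transferred cells were purified from each spleen on day 4, to over 99% by flow cytometry, and RNA of at least 400000 cells from 1 mouse went onto 1 array. There were 3 mice in each group, and mice given peptide with isotype control only are not among them. All the comparisons are therefore between treatments, and the transferred cells of all groups came from donors with the same transgenic receptor.

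The protective proteins bind and hold back BAX and BAK, the effectors that form pores in the mitochondrial outer membrane. The BH3-only proteins respond to cytokine loss, DNA damage and other stress, and either occupy the protective proteins or activate the effectors directly. In T cells, BIM, encoded by Bcl2l11, is known as a main driver of death after an antigen response and on cytokine loss, and BCL2 and MCL1 are known as its chief opponents.

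The promoter windows of Bcl2l11 and Bcl2 are shown because these genes encode the main death-promoting and protective pair in T cells. They are RefSeq sequences of mouse build GRCm38.p6, from 250 bases before to 50 after a transcript start, written 5′ to 3′. Capitals mark matches on either strand to GTAAACA (a FOXO motif), TTCNNNGAA (STAT), GGGCGG (GC box), CACGTG (E box), TGACGTCA (CRE) and the CCAAT box, named by its letters. Bcl2l11 lies at chr2:128125788-128126087 on the plus strand, the first of its 2 windows, and Bcl2 at chr1:106714241-106714540 on the minus strand.
Bcl2l11: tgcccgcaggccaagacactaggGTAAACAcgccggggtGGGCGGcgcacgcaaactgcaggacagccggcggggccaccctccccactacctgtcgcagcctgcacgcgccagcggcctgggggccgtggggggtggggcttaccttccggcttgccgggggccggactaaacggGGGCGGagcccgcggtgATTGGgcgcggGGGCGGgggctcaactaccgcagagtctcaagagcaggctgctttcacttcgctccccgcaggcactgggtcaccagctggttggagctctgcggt
Bcl2: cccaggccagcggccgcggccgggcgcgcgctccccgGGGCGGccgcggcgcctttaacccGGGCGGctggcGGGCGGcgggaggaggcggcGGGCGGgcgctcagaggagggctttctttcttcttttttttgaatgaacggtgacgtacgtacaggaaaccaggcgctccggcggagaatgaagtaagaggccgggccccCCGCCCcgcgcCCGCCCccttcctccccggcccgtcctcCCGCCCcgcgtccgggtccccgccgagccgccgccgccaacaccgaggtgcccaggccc
The printed Bcl2l11 window held 1 FOXO match, 3 GC boxes and 1 CCAAT box, and 71% of its bases were G or C. Its other window, at chr2:128127325-128127624, held 0 FOXO matches, 3 GC boxes and 2 CCAAT boxes. The Bcl2 window held 7 GC boxes and no match to the other motifs, and 76% of its bases were G or C, against a median of 52.7% over 32851 windows of all genes. Of the 9 genes, 8 had windows, 14 in all, and Pmaip1 had none. A FOXO match was in 2 of the 14, the printed window of Bcl2l11 and a window of Bbc3, and in 3.65% of all windows. GC boxes were in 9 of the 14 and in 35.7% of all windows, CCAAT boxes in 4 and in 37.4%, and an E box in 1 and in 7.15%. STAT and CRE motifs were in 0 of the 14, and in 8.3% and 1.79% of all windows. These matches are letters in a window only.

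The anti-PD-1/L1 arrays stood apart from the other 6 in several, but not all, measures that do not depend on a single gene. Background control probe sets had mean log2 levels of 3.25 ± 0.04 (SD, n = 3) on the combination arrays, 3.27 ± 0.06 on the anti-CD27 arrays and 4.06 ± 0.08 on the anti-PD-1/L1 arrays, and positive controls were at 6.81 ± 0.04 in the combination, 6.70 ± 0.02 under anti-CD27 and 5.75 ± 0.19 under anti-PD-1/L1. No array of the other groups overlapped those of anti-PD-1/L1 in either measure, so that treatment and array differences cannot be told apart wherever anti-PD-1/L1 is compared. Negative controls did not set these arrays apart, at 2.78 ± 0.07 in the combination, 2.92 ± 0.06 under anti-CD27 and 2.77 ± 0.05 under anti-PD-1/L1. In the deposited values 72.3% of all genes were called between the combination and anti-PD-1/L1, with a median difference of -0.26 (log2), and 70.8% between anti-CD27 and anti-PD-1/L1, with the same median. A call is an adjusted p under 0.05. The mean level of 7 T cell identity genes was 9.94 ± 0.07 in the combination, 10.04 ± 0.01 under anti-CD27 and 9.05 ± 0.27 under anti-PD-1/L1. Of these 7, Cd3d went the other way, at 9.40 in the combination, 9.63 under anti-CD27 and 9.97 under anti-PD-1/L1, and with the positive controls as a covariate the list's median difference from anti-PD-1/L1 turned to -0.70 in the combination and -0.26 in anti-CD27. Of 23 markers of CD4, B, myeloid, dendritic, NK and erythroid cells, 17 lay below the background controls in all 3 groups, Cd4 among them, and 6 (Cd68, Cd79b, Itgam, Klrb1c, Pax5 and Zbtb7b) lay above them in at least 1 group. Itgam, a myeloid marker that activated CD8+ T cells can also express, was called higher in the combination than in anti-CD27 (4.36 against 3.75, adjusted p = 0.00102), and so also after quantile normalization and with the covariate, and its part in the results below was not tested. The other 7 myeloid markers were not called in that comparison. Of the 7 T cell identity genes 0 were called there in the deposited values. Cd3d was called lower in the combination after quantile normalization (-0.40, adjusted p = 0.0112) and with the covariate (-0.30, adjusted p = 0.0290). With the covariate Cd8a (-0.44, adjusted p = 0.0114) and the B cell marker Cd79b (-0.43, adjusted p = 0.0416) were called lower too. The part of these genes was not tested either. In bulk RNA, fewer cells of a type and less RNA per cell cannot be told apart.

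**Figure D1:**
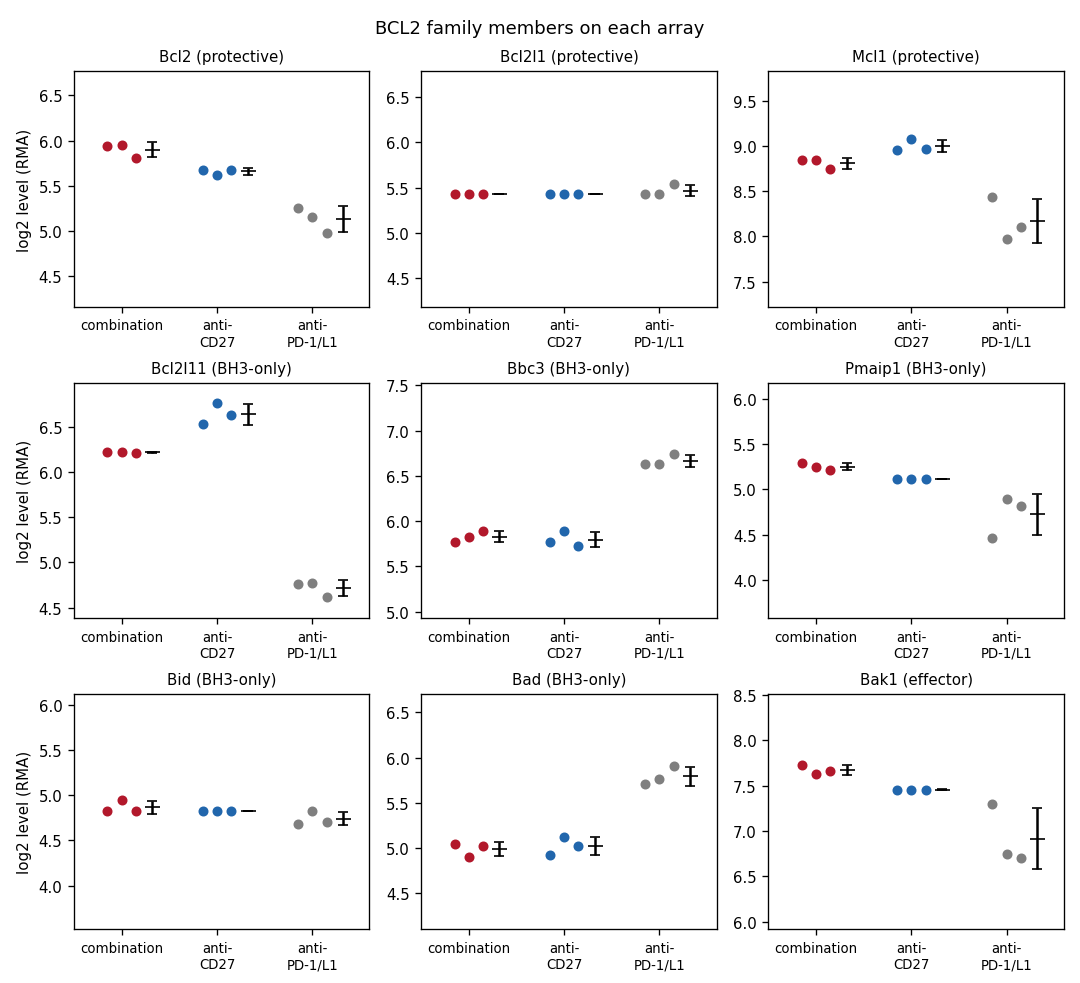
Log2 level of each of the 9 genes (vertical axes) on each of 3 arrays in the combination (red), anti-CD27 (blue) and anti-PD-1/L1 (grey) groups, with the mean and SD as bars. Bcl2l11 lay at 6.21 to 6.22 in the combination, 6.52 to 6.76 in anti-CD27 and 4.61 to 4.78 in anti-PD-1/L1, and Bbc3 and Bad were highest on the anti-PD-1/L1 arrays.

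Setting the combination against anti-CD27 addresses what blocking the PD-1 pathway changed on top of CD27 agonism. Bcl2l11, the gene of the BH3-only protein BIM, fell in the combination by 1.34-fold, and it was the only one of the 9 genes called. The background for a call in either direction was 1.8% of all genes, with 1.28% higher and 0.528% lower. Bcl2 and Bak1 lay higher and Mcl1 lower on the combination arrays without passing the test.

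Bcl2l11 had log2 levels of 6.22, 6.22 and 6.21 in the combination, against 6.52, 6.76 and 6.62 in anti-CD27. All combination arrays lay below all anti-CD27 arrays, and they were closely grouped. Combination replicates 1 and 2 shared 1 summarised value, which limits what this close grouping can show. The difference was -0.42 ± 0.07 (log2, SE, n = 3 each), with a 95% interval of -0.58 to -0.26 and an adjusted p of 0.0252. The call rested on every combination array and on anti-CD27 replicates 2 and 3: without any 1 of these the difference lay between -0.42 and -0.36 and the adjusted p between 0.0918 and 0.104. Each array is 1 mouse, with 3 in each group. The test's spread is shared over all 9 arrays and moderated over all genes. It is therefore not the spread of these 2 groups alone, whose SDs were 0.008 in the combination and 0.12 in anti-CD27.

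Among the protective genes, Bcl2 had levels of 5.94, 5.95 and 5.81 in the combination, against 5.68, 5.62 and 5.68 in anti-CD27. The groups did not overlap, and the difference was 0.24 ± 0.08, with a 95% interval of 0.06 to 0.42 and an adjusted p of 0.263. Mcl1, whose short-lived protein T cells need at all stages, had levels of 8.84, 8.84 and 8.74 in the combination, against 8.96, 9.08 and 8.97 in anti-CD27. These groups did not overlap either, with the combination lower, and the difference was -0.19 ± 0.11 (95% interval -0.45 to 0.06, adjusted p = 0.750). After quantile normalization Mcl1 was called, at -0.30 (adjusted p = 0.0442). Bcl2l1, the gene of BCL-XL, gave 5.43 on all 6 arrays. Its summarised value was shared by 8 of the 9 arrays, which limits what it can show, and 0.508% of all genes shared a value on 8 or more arrays.

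Bak1, the effector measured here, had levels of 7.73, 7.63 and 7.66 in the combination, against 7.46, 7.46 and 7.45 in anti-CD27. The combination arrays all lay above those of anti-CD27, and the difference of 0.22 ± 0.14 had an adjusted p of 0.836. The test's spread is shared over all 9 arrays, and the SD of Bak1 was 0.34 in anti-PD-1/L1. With only the 6 arrays compared, Bak1 was called, with an adjusted p of 0.0241. Pmaip1, the gene of NOXA, which mainly neutralises MCL1, had levels of 5.30, 5.25 and 5.21 in the combination, against 5.12 on each anti-CD27 array. Its groups did not overlap and its difference of 0.14 ± 0.10 had an adjusted p of 0.924. In all, 5 of the 9 genes had groups that did not overlap, 3 higher and 2 lower, against a background of 20.5% of all genes, 12.1% higher and 8.46% lower.

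The remaining BH3-only genes overlapped between the groups. Bbc3, the gene of PUMA and a known p53 target, had levels of 5.77, 5.83 and 5.89 in the combination, against 5.77, 5.89 and 5.72 in anti-CD27, a difference of 0.03 ± 0.06. Bad, whose product is kept inactive by phosphorylation under growth signals, had levels of 5.05, 4.90 and 5.02 in the combination, against 4.93, 5.13 and 5.02 in anti-CD27, a difference of -0.03 ± 0.08. The signs of both small differences turned under other settings, Bbc3 to -0.01 after quantile normalization and Bad to 0.02 with each array's mean of the positive control probe sets as a covariate in the fit. Bid, which links death receptors to mitochondria once its protein is cut by caspase 8, read 4.83 on 5 of these 6 arrays and 4.95 on combination replicate 2.

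**Figure D2:**
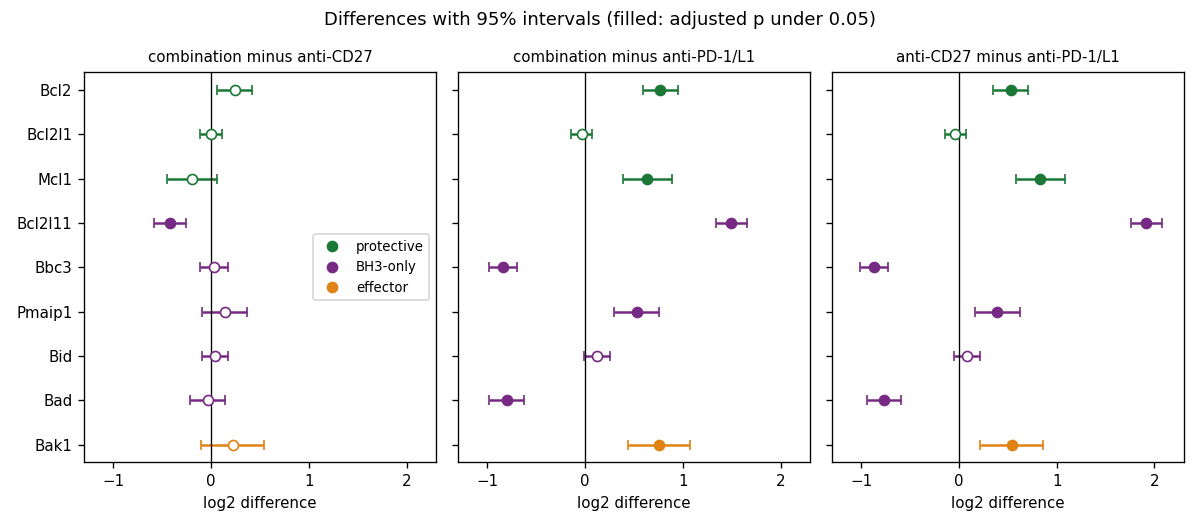
Log2 difference (horizontal axes) with its 95% interval for each of the 9 genes in the 3 comparisons, filled where the adjusted p was under 0.05. Between the combination and anti-CD27 only Bcl2l11 is filled, at -0.42, and against anti-PD-1/L1 its differences were 1.50 for the combination and 1.92 for anti-CD27. With the positive controls as a covariate, Bcl2, Mcl1 and Bak1 turned negative in both comparisons with anti-PD-1/L1, and none of these was called.

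Against anti-PD-1/L1, the combination had more transcript of Bcl2, Mcl1, Bcl2l11, Pmaip1 and Bak1 and less of Bbc3 and Bad in the deposited values. With the positive controls as a covariate Bcl2, Mcl1 and Bak1 turned negative and were not called. In the deposited values 7 of 9 genes were called, 5 higher and 2 lower. The background was 72.3% of all genes in either direction, 19% higher and 53.3% lower. The same 7 genes had groups that did not overlap, against 73.5% of all genes, 18.9% higher and 54.6% lower. Both shares of the 9 genes in either direction are thus near the background in the deposited values. After quantile normalization 2 of 3 protective genes were higher and 1 lower, 3 of 5 BH3-only genes were higher and 2 lower, and Bak1 was higher. The background there was 52% in either direction, 24% higher and 27.9% lower. The share of the 9 genes above it includes Bcl2l1 and Bid, whose deposited values were shared by 8 and 6 of the 9 arrays. Quantile normalization can call such a gene: Zmat3, with 1 deposited value on all 9 arrays, was called lower (-0.16, adjusted p = 0.0182). The higher share is therefore not read as a result about the 9 genes. Anti-CD27 was set against the same anti-PD-1/L1 arrays, and its values are given beside those of the combination. There, too, 7 of 9 genes were called, 5 higher and 2 lower, against a background of 70.8% in either direction, 17.1% higher and 53.7% lower. Groups did not overlap for 7 of 9 genes there, against 72.5% of all genes, 17.5% higher and 55.1% lower. After quantile normalization 2 of 3 protective genes were higher and 1 lower in anti-CD27, 3 of 5 BH3-only genes were higher and 2 lower, and Bak1 was not called. The background was then 50.3% in either direction, 23.3% higher and 27% lower.

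Bcl2l11 had the largest differences of the 9 genes in both comparisons in the deposited values. Its levels were 4.76, 4.78 and 4.61 in anti-PD-1/L1, so that no array of that group reached those of the other groups. It was 2.82-fold higher in the combination (1.50 ± 0.07, adjusted p = 5.96e-07) and 3.78-fold higher in anti-CD27 (1.92 ± 0.07, adjusted p = 1.57e-07). With the positive controls as a covariate the differences were 1.24 for the combination (adjusted p = 0.0715) and 1.69 for anti-CD27 (adjusted p = 0.0240). After quantile normalization Bcl2l11 stayed called, at 1.48 for the combination and 1.94 for anti-CD27. The order of its levels was anti-CD27, then the combination, then anti-PD-1/L1, and each step passed the test in the deposited values.

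Bcl2 had levels of 5.26, 5.16 and 4.98 in anti-PD-1/L1. Here too the groups did not overlap. It was 1.71-fold higher in the combination (0.77 ± 0.08, adjusted p = 4.31e-05) and 1.44-fold higher in anti-CD27 (0.53 ± 0.08, adjusted p = 0.000382). With the positive controls as a covariate the differences were -0.06 ± 0.24 in the combination and -0.21 ± 0.22 in anti-CD27 and were not called. After quantile normalization Bcl2 was called, at 0.62 in the combination and 0.45 in anti-CD27. Its order was the combination, then anti-CD27, then anti-PD-1/L1, and the first pair did not differ by the test. Mcl1 had levels of 8.44, 7.97 and 8.10 in anti-PD-1/L1, with replicate 1 the highest of them and still below the other groups. It was 1.56-fold higher in the combination (0.64 ± 0.11, adjusted p = 0.000829) and 1.78-fold higher in anti-CD27 (0.83 ± 0.11, adjusted p = 0.000196). With the covariate the differences were -0.48 ± 0.37 in the combination and -0.18 ± 0.34 in anti-CD27, not called. After quantile normalization Mcl1 was called at 0.39 in the combination and 0.69 in anti-CD27 against anti-PD-1/L1. Bcl2l1 read 5.43, 5.43 and 5.54 in anti-PD-1/L1. Its difference was -0.04 ± 0.05 in both comparisons in the deposited values (adjusted p = 0.512 for the combination and 0.515 for anti-CD27). With the covariate it turned to 0.20 ± 0.20 in the combination and 0.18 ± 0.18 in anti-CD27, not called. After quantile normalization it was called lower in both, at -0.25 for the combination and -0.22 for anti-CD27.

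Bbc3 and Bad went the other way from Bcl2l11, although all are BH3-only genes. Bbc3 had levels of 6.63, 6.63 and 6.74 in anti-PD-1/L1, above every array of the other groups. It was 1.79-fold lower in the combination (-0.84 ± 0.06, adjusted p = 9.61e-06) and 1.83-fold lower in anti-CD27 (-0.87 ± 0.06, adjusted p = 8.78e-06). Bad had levels of 5.71, 5.76 and 5.91 in anti-PD-1/L1, again above every other array. It was 1.74-fold lower in the combination (-0.80 ± 0.08, adjusted p = 3.19e-05) and 1.70-fold lower in anti-CD27 (-0.77 ± 0.08, adjusted p = 4.61e-05). With the covariate both genes kept their sign and lost their calls: Bbc3 was at -0.49 in the combination and -0.56 in anti-CD27, and Bad at -0.21 in the combination and -0.23 in anti-CD27. After quantile normalization both genes stayed called, Bbc3 at -1.26 in the combination and -1.24 in anti-CD27, and Bad at -1.04 in the combination and -0.99 in anti-CD27. Their levels in the combination and in anti-CD27 did not differ beyond the spread.

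Pmaip1 had levels of 4.46, 4.90 and 4.81 in anti-PD-1/L1, the lowest of them 0.44 above that array's background controls, the smallest margin of any of the 9 genes. It was 1.44-fold higher in the combination (0.53 ± 0.10, adjusted p = 0.00147) and 1.31-fold higher in anti-CD27 (0.39 ± 0.10, adjusted p = 0.00766). With the covariate it was called in both, at 1.58 for the combination (adjusted p = 0.0380) and 1.34 for anti-CD27 (adjusted p = 0.0392). After quantile normalization Pmaip1 was called in both too, at 0.60 for the combination and 0.50 for anti-CD27. Bak1 had levels of 7.30, 6.75 and 6.70 in anti-PD-1/L1, the widest spread of the 9 genes in any group. It was 1.69-fold higher in the combination (0.76 ± 0.14, adjusted p = 0.00122) and 1.45-fold higher in anti-CD27 (0.54 ± 0.14, adjusted p = 0.00798). With the covariate it was at -1.01 ± 0.29 in the combination and -1.05 ± 0.26 in anti-CD27, not called. After quantile normalization Bak1 was at 0.27 for the combination (adjusted p = 0.0280) and 0.15 for anti-CD27, where it was no longer called (adjusted p = 0.200). Bid overlapped between groups, with levels of 4.69, 4.83 and 4.71 in anti-PD-1/L1, and had differences of 0.13 ± 0.06 for the combination (adjusted p = 0.0760) and 0.09 ± 0.06 for anti-CD27 (adjusted p = 0.211). After quantile normalization Bid was called higher in both, at 0.25 for the combination and 0.23 for anti-CD27. Its deposited value was shared by 6 of the 9 arrays, which limits these calls too.

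The difference of a typical gene from anti-PD-1/L1 varied with its level. Genes with a mean level of 5 to 6, the range of Bcl2, Bcl2l1, Bcl2l11, Pmaip1 and Bad, had a median difference of 0.09 for the combination, with quartiles of -0.32 and 0.64. Bcl2l11 and Bcl2 lay above that upper quartile, Bad lay below the lower one, and Pmaip1 and Bcl2l1 lay between them. Genes of level 6 to 7 had a median of 0.47 and a lower quartile of -0.08, and Bbc3, at -0.84, lay below it. Mcl1 and Bak1 lay between the quartiles of genes of like level, whose medians were 0.34 at level 8 to 9 and 0.53 at level 7 to 8. Bid, at 0.13, lay above the upper quartile of 0.02 for genes of level 4 to 5. For anti-CD27, Bcl2l11 at 1.92 lay above the quartiles of its level range (-0.33 and 0.57), Bad and Bbc3 lay below theirs, and Bcl2 at 0.53 lay between them.

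**Figure D3:**
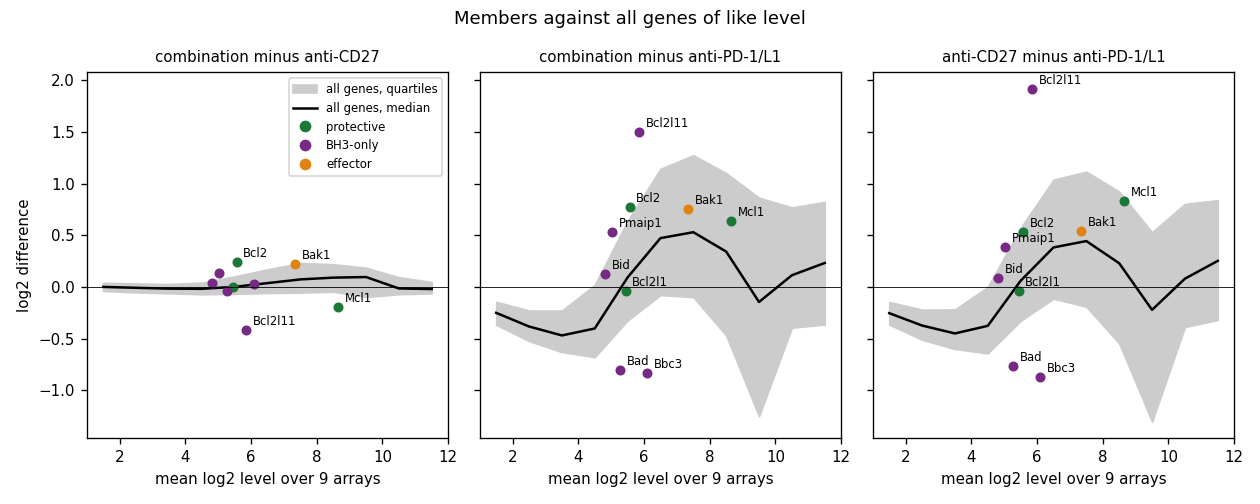
Log2 difference (vertical axis) against mean log2 level over 9 arrays (horizontal axis) for the 9 genes, with the median and quartiles of all genes as line and band. Against anti-PD-1/L1 the median of all genes changes from negative below level 5 to positive between levels 5 and 9, and Bcl2l11 lies above the band while Bad and Bbc3 lie below it. Bcl2, Mcl1 and Bak1, shown above 0 there, turned negative with the positive controls as a covariate and were then not called.

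The balance of protective against death-promoting genes was described by centring each gene on its mean over the 9 arrays. The 3 protective genes averaged 0.18, 0.19 and 0.11 in the combination, 0.13, 0.15 and 0.14 under anti-CD27, and -0.18, -0.37 and -0.35 under anti-PD-1/L1. The 6 death-promoting genes averaged 0.08, 0.06 and 0.07 in the combination, 0.04, 0.13 and 0.06 under anti-CD27, and -0.14, -0.13 and -0.16 under anti-PD-1/L1. Both classes were therefore lowest on the anti-PD-1/L1 arrays in the deposited values. The protective mean less the death-promoting mean was 0.09 ± 0.05 in the combination (SD, n = 3), 0.07 ± 0.04 under anti-CD27 and -0.16 ± 0.11 under anti-PD-1/L1.

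Between the combination and anti-CD27 the balance differed by 0.02, less than the SD of either group, and it turned to -0.04 with the positive controls as a covariate. It was 0.25 higher in the combination and 0.23 higher in anti-CD27 than in anti-PD-1/L1, and both differences turned negative with the covariate, to -0.34 in the combination and -0.30 in anti-CD27. These values depend on which genes are included. Without Bcl2l11 the balance differed by -0.06 between the combination and anti-CD27. It then differed by 0.50 between the combination and anti-PD-1/L1, and by 0.57 between anti-CD27 and anti-PD-1/L1. Bbc3 and Bad also weigh on the balance against anti-PD-1/L1, and leaving them out was not tested. Their differences were -0.84 for Bbc3 and -0.80 for Bad in the combination, and -0.87 for Bbc3 and -0.77 for Bad in anti-CD27. Within the death-promoting class, genes with opposite signs offset each other. Set against Bcl2l11, whose difference was subtracted, the protective genes stood at 0.66 for Bcl2, 0.42 for Bcl2l1 and 0.22 for Mcl1 between the combination and anti-CD27, on the log2 scale. Bcl2l1 itself had a difference of 0 there, its value being shared by 8 of the 9 arrays, and Mcl1 had one of -0.19. The positive values of these 2 genes thus come from subtracting that of Bcl2l11. Against anti-PD-1/L1 the same measure was -0.73 for Bcl2, -1.53 for Bcl2l1 and -0.86 for Mcl1 in the combination, and -1.39 for Bcl2, -1.95 for Bcl2l1 and -1.08 for Mcl1 in anti-CD27.

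**Figure D4:**
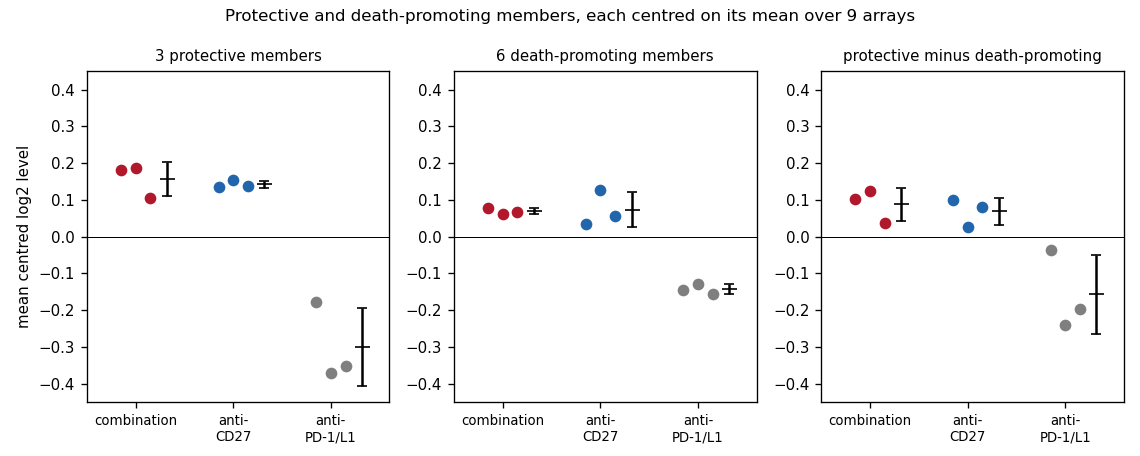
Mean centred log2 level (vertical axis) of the 3 protective genes, of the 6 death-promoting genes, and their difference, on each array of the combination (red), anti-CD27 (blue) and anti-PD-1/L1 (grey), with the mean and SD as bars. The difference was 0.09 ± 0.05 in the combination, 0.07 ± 0.04 under anti-CD27 and -0.16 ± 0.11 under anti-PD-1/L1, and both differences from anti-PD-1/L1 turned negative with the positive controls as a covariate.

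Of 15 further BCL2 family genes, 14 were measured. Between the combination and anti-CD27 0 of 14 were called, with a median difference of -0.03, and 2 had an unadjusted p under 0.05, as did 9.7% of all genes. Bcl2a1a and Bcl2a1d, which encode the protective protein A1 and are near-identical copies whose signals may be shared, had differences of 0.31 ± 0.10 (adjusted p = 0.276) and 0.23 ± 0.08 (adjusted p = 0.334). Against anti-PD-1/L1, 2 of the 14 were higher and 9 lower in the combination, and 2 were higher and 9 lower in anti-CD27. These shares lie near the background of all genes, 19% higher and 53.3% lower for the combination and 17.1% higher and 53.7% lower for anti-CD27. The comparisons share the anti-PD-1/L1 arrays, and the 9 lower genes in each were Bik, Bok, Hrk, Bmf, Bcl2l2, Bcl2l10, Bcl2l14, Bcl2l15 and Bnip3. Bcl2l14 lay below the background controls in anti-PD-1/L1, and its sign changed after quantile normalization, so that no size is given for it. Among the others, Bik, a BH3-only gene, was at -0.83 in the combination and -0.71 in anti-CD27, and Hrk, another BH3-only gene, was at -0.73 in the combination and -0.74 in anti-CD27. Bok, an effector-like gene, was at -0.78 in the combination and -0.79 in anti-CD27. Bik, Hrk and Bok kept their sign after quantile normalization and with the covariate. Bcl2l13 was higher in both, at 0.90 in the combination and 0.85 in anti-CD27, and turned to -0.38 in the combination and -0.30 in anti-CD27 with the covariate. Bcl2l10, which changed sign with the covariate, Bcl2l15 and Bnip3 lay below the background controls in all 3 groups. With the positive controls as a covariate 0 of 14 were called in either comparison. After quantile normalization 1 was higher and 6 lower in the combination, and 1 higher and 5 lower in anti-CD27. These lower genes were not all among those named above. Bnip3l was then lower in the combination (-0.20, adjusted p = 0.0416), though its deposited level was higher there (6.88 against 6.61). Bcl2a1a was then lower in anti-CD27 (-0.45, adjusted p = 0.00324).

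In the wider pathway, upstream cytokine signals were measured by 13 of 15 listed genes. Il2ra, the high-affinity interleukin-2 receptor chain, was the only one called between the combination and anti-CD27. It had a mean level of 5.56 ± 0.14 in the combination and 3.05 ± 0.05 in anti-CD27, which is not above the background controls, and it was higher by at least 2.29 on the log2 scale (adjusted p = 5.92e-05). Against anti-PD-1/L1, 10 were higher and 1 lower in the combination, and likewise in anti-CD27, against 19% of all genes higher and 53.3% lower for the combination and 17.1% higher and 53.7% lower for anti-CD27. With the covariate 2 of 13 were called in the combination and 1 of 13 in anti-CD27, all higher, when 6.26% of all genes were called for the combination and 7.89% for anti-CD27. Il7r, the receptor chain for the survival cytokine interleukin-7, differed by 2.77 in the combination and 2.66 in anti-CD27, and the kinase gene Jak1 by 3.01 in the combination and 2.97 in anti-CD27. Jak1 was also called with the covariate, at 2.10 in the combination and 2.15 in anti-CD27, and Il7r was not, at 0.74 in the combination and 0.82 in anti-CD27. The median of this list was 0.79 for the combination and 0.77 for anti-CD27, against -0.26 over all genes, and with the covariate it was 0.51 in the combination and 0.52 in anti-CD27.

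Of the p53 and FOXO regulators, 10 of 12 were measured and 0 were called between the combination and anti-CD27, 5 having an unadjusted p under 0.05, against 9.7% of all genes. Ddit3, the stress-induced factor CHOP, had a difference of -0.31 (adjusted p = 0.0648) and was called lower after quantile normalization (-0.35, adjusted p = 0.0294) and with the covariate (-0.38, adjusted p = 0.0143). Trp53inp1, a p53 target, was at -0.23 (adjusted p = 0.812) and was called lower with the covariate (-0.41, adjusted p = 0.0474). Foxo1, a transcription factor known to induce Bcl2l11, had the largest difference of that list there, at -0.57 ± 0.18 (adjusted p = 0.248). Against anti-PD-1/L1, 6 were higher and 2 lower in the combination, against 19% of all genes higher and 53.3% lower. In anti-CD27 6 were higher and 2 lower, against 17.1% of all genes higher and 53.7% lower. With the covariate 0 were higher and 2 lower in each. Foxo1 differed by 2.28 in the combination and 2.85 in anti-CD27, and Trp53inp1 by 0.92 in the combination and 1.15 in anti-CD27. With the covariate Foxo1 was at 0.66 in the combination and 1.39 in anti-CD27 and was not called, and Trp53inp1 turned to -0.81 in the combination and -0.41 in anti-CD27. The median of the list was 0.35 for the combination and 0.49 for anti-CD27 and turned to -0.65 in the combination and -0.44 in anti-CD27 with the covariate.

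Downstream of the mitochondrion, 15 of 18 genes of the apoptosome, caspases and their inhibitors were measured. Between the combination and anti-CD27 0 were called, 5 having an unadjusted p under 0.05 (9.7% of all genes), and Cycs, which encodes cytochrome c, had the largest difference, at 0.65 ± 0.17 (adjusted p = 0.129). Against anti-PD-1/L1, 9 were higher and 3 lower in the combination, against 19% of all genes higher and 53.3% lower. In anti-CD27 8 were higher and 3 lower, against 17.1% of all genes higher and 53.7% lower. With the covariate 1 was called in each, higher. Apaf1, the scaffold of the apoptosome, differed by 1.53 in the combination and 1.27 in anti-CD27, and Birc3, an inhibitor of apoptosis, by 1.40 in the combination and 1.64 in anti-CD27. With the covariate Apaf1 was called, at 1.08 in the combination and 0.87 in anti-CD27, and Birc3 was not, at 0.68 in the combination and 0.98 in anti-CD27. The list's median was 0.43 for the combination and 0.29 for anti-CD27 and turned to -0.20 in the combination and -0.36 in anti-CD27 with the covariate.

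Proteins at the outer membrane, among them the channels and fusion and fission factors that work beside the BCL2 family, were measured by 8 of 8 genes. Their median difference between the combination and anti-CD27 was 0.30, against -0.003 over all genes. Of the 8 genes 0 were called, and 5 had an unadjusted p under 0.05, against 9.7% of all genes. Vdac3, an outer membrane channel, had the largest of these differences, at 0.52 ± 0.18 (adjusted p = 0.326). Against anti-PD-1/L1, 8 of 8 were higher in the combination and 6 of 8 in anti-CD27, against 19% of all genes higher for the combination and 17.1% for anti-CD27. With the covariate 2 of 8 were called higher in each. Opa1, a fusion factor that also shapes cristae, differed by 2.10 in the combination and 1.94 in anti-CD27, and Dnm1l, the fission enzyme DRP1, by 2.07 in the combination and 1.71 in anti-CD27. With the covariate Opa1 was called, at 2.17 in the combination and 2.00 in anti-CD27, and Dnm1l was at 0.02 in the combination and -0.13 in anti-CD27. The list's median turned from positive to negative with the covariate, to -0.46 for the combination and -0.64 for anti-CD27.

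Of genes for turnover and sequestration of the family's proteins, 9 of 10 were measured, and 0 were called between the combination and anti-CD27, 2 having an unadjusted p under 0.05, against 9.7% of all genes. The largest difference was that of Ywhaq, which encodes a phosphoserine-binding adaptor protein, at 0.24 ± 0.07 (adjusted p = 0.208). Against anti-PD-1/L1, 7 were higher in the combination and 6 in anti-CD27, and 0 were lower in either, against 19% of all genes higher for the combination and 17.1% for anti-CD27. With the covariate 1 was higher and 0 lower in the combination, and 1 was higher and 1 lower in anti-CD27. Usp9x, a deubiquitinase known to stabilise MCL1, differed by 2.92 in the combination and 2.81 in anti-CD27, and Gsk3b, a kinase known to mark MCL1 for degradation, by 2.01 in the combination and 2.03 in anti-CD27. With the covariate Usp9x was at 2.22 in the combination and 2.18 in anti-CD27 and Gsk3b at 1.14 in the combination and 1.24 in anti-CD27, neither called. Fbxw7, which encodes a subunit of a ubiquitin ligase of MCL1, was higher by 0.68 in the combination and 0.71 in anti-CD27, and it was called higher with the covariate too, at 1.65 in the combination and 1.59 in anti-CD27.

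Of the death receptor pathway, which joins the BCL2 family through Bid, 9 of 10 genes were measured, and 0 were called between the combination and anti-CD27, 1 having an unadjusted p under 0.05, against 9.7% of all genes. That was Fasl, the ligand of Fas, whose levels lay below the background controls in both groups and give no usable difference. Against anti-PD-1/L1, 4 were higher and 0 lower in the combination, against 19% of all genes higher and 53.3% lower. In anti-CD27 4 were higher and 1 lower, against 17.1% of all genes higher and 53.7% lower. With the covariate 0 were called in the combination and 1, lower, in anti-CD27. Fas, the receptor itself, differed by 1.76 in the combination and 1.86 in anti-CD27, and Cflar, which restrains caspase 8, by 1.22 in the combination and 1.04 in anti-CD27. With the covariate Fas turned to -0.59 in the combination and -0.26 in anti-CD27 and Cflar to -0.64 in the combination and -0.64 in anti-CD27. The median of the turnover list was 0.68 for the combination and 0.71 for anti-CD27, and that of the death receptor list 0.23 in the combination and 0.00 in anti-CD27. With the covariate all 4 medians were below 0, between -0.25 and -0.05.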

How the data were processed

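The authors deposited log2 values from whole-transcript arrays. Per the submitters' processing notes they were made with oligo 1.38.0 by RMA, a method that subtracts background, equalises probe distributions and summarises probe sets. Its summary can give several arrays the same value, and 64.7% of genes shared a value on at least 2 arrays. The array's genome build is not given in the sources used here. Names came from the platform annotation, and 1199 symbols were brought up to date with RefSeq's mouse genes. Of 65956 transcript probe sets, 31258 named 1 gene, 1492 several and 33206 none. Only those naming 1 gene were used, with the highest mean over 9 arrays kept per gene, which gave 30702 genes with no filter on low values.

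Limma 3.58.1 in R 4.3.3 was fitted to all 9 arrays with 1 mean per group, and its moderated two-sided test was adjusted by the Benjamini-Hochberg method over all 30702 genes. Genes were called below 0.05, whatever their fold. Levels are means with SD over 3 mice, and differences are log2 with limma's SE. The number of arrays limits the precision. The balance of protective and death-promoting genes has no p. A gene below the background controls in 1 group is given as a lower limit against those controls. Alternatives were quantile normalization, a filter on low values, only the 6 arrays compared, a replicate block, the positive controls' mean as a covariate, array weights, a trended and robust prior, the mean of a gene's probe sets, and leaving out each array.

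The 10 genes, the pathway and marker lists and the tests were chosen with earlier results of these data known. All members and other listed BCL2 family genes are named in the text or covered by counts. From each other list up to 4 called genes, or the gene with the largest difference where none was called, qualified for naming, and the largest of these are given. Bax, and other listed genes without a probe set of their own, were not analysed here.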

Additional observations from a re-analysis of the deposited data

How the results depend on the processing

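Between the combination and anti-CD27, 1 of the 9 genes was called, against 2 after quantile normalization (Mcl1 added), 2 with only the 6 arrays compared (Bak1 added), and 2 with array weights (Bcl2 added, adjusted p = 0.0220). Leaving out each array gave 0 to 2, with 2 only without anti-PD-1/L1 replicate 1 (Bak1 added, adjusted p = 0.0331). The sample numbers of the groups do not pair the samples: deviations of same-numbered arrays correlated at -0.09 to -0.05 between the combination and anti-CD27, 0.02 to 0.16 between the combination and anti-PD-1/L1, and -0.20 to -0.08 between anti-CD27 and anti-PD-1/L1, and 0, 4 and 0 of 6 arrays correlated best with their own number. With the replicate block, Bcl2l11 had an adjusted p of 0.0520, so that 0 genes were called between the combination and anti-CD27, and it changed no other call of the 9 genes. With the positive controls as a covariate, 1 gene was called in the combination and 2 in anti-CD27, relative to anti-PD-1/L1, in place of 7 in each, and the balance of protective and death-promoting genes was -0.039, -0.34 and -0.30 in the comparisons of the combination with anti-CD27, the combination with anti-PD-1/L1 and anti-CD27 with anti-PD-1/L1. The values that turned under the covariate against anti-PD-1/L1 were, for the combination, Bcl2 -0.055, Bcl2l1 0.20, Mcl1 -0.48 and Bak1 -1.01. For anti-CD27 they were Bcl2 -0.21, Bcl2l1 0.18, Mcl1 -0.18 and Bak1 -1.05. None of these was called. The covariate does not overlap between these groups, 5.59 to 5.96 on the anti-PD-1/L1 arrays and 6.68 to 6.83 on the others, so its slope comes from differences within groups. The cause of these changes was not tested. Between the combination and anti-CD27, Bad turned to 0.025 with the covariate and Bbc3 to -0.014 after quantile normalization, and leaving out each array gave Bad -0.084 to 0.016, with 0.011 without combination replicate 2, and Bbc3 -0.0041 to 0.078. Leaving out each array against anti-PD-1/L1 gave 7 to 8 calls for the combination (Bid added without anti-PD-1/L1 replicate 2, adjusted p = 0.0231) and 7 for anti-CD27, and balances of 0.20 to 0.31 for the combination and 0.18 to 0.29 for anti-CD27, against -0.0016 to 0.04 between the combination and anti-CD27. Of all genes, 554 were called between the combination and anti-CD27, but 1653 with only those 6 arrays, 2209 with array weights and 174 to 1226 on leaving out each array. Against anti-PD-1/L1, 22207 were called for the combination and 21737 for anti-CD27, but 1921 for the combination and 2422 for anti-CD27 with the covariate, and 11892 for the combination and 11432 for anti-CD27 after leaving out the 50% of genes with the lowest means, where fewer genes were tested.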
